A study of Mus musculus with 12 samples.

Results

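Hair follicle stem cells whose genotype ties deletion of Egfr to Lgr5 were compared with stem cells whose genotype is written as floxed Egfr with no deletion. Egfr encodes the epidermal growth factor receptor, and Lgr5 encodes an R-spondin receptor of the WNT pathway in cycling epithelial stem cells. The comparison takes 4 of the 12 libraries of a mouse skin RNA sequencing series on the receptor in hair shaft differentiation. Libraries L95 and L97 carry the genotype EGFR_delta_LGR5 and are labelled knockout, and libraries L94 and L136 carry the genotype EGFR_fl_fl and are labelled control. All 4 are labelled as hair follicle stem cells (HFSC). A driver tied to Lgr5 acts only in cells that use that locus, and the share of cells it reached is not stated. The other 8 libraries come from sorted outer root sheath cells (ORS) and from cells abbreviated IFE in the labels, and they are used here only to place HFSC values. Their libraries labelled knockout carry another genotype, EGFR_delta_ep, and their controls carry EGFR_fl_fl. Members were chosen by genotype and cell label alone. Of 24483 autosomal genes listed, 13342 had enough reads to be tested. The sources used here do not give the Cre line, its induction, the age of the mice or the gate for HFSC. The labels do not tell whether the libraries of a group were made from different mice, so a p-value here measures the spread between samples, which may be technical.

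The bulge of the hair follicle houses stem cells that rest for long periods and are kept quiet by BMP and by secreted WNT antagonists. Activated stem cells feed the hair germ and the outer root sheath as a new hair begins. EGFR is bound by ligands such as TGF-alpha and HB-EGF, signals through RAS and ERK, and induces its own brakes, among them the phosphatase DUSP6, the Sprouty proteins and the adaptor ERRFI1. In epidermis the receptor promotes growth and restrains terminal differentiation.

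Reads in genes came to 11.5 M in L136, 15.3 M in L94, 16.8 M in L95 and 15.7 M in L97, and levels are given as counts per 1e6 of these after scaling (CPM). Where values stand as a pair against a pair, the first pair is L136 and L94 and the second L95 and L97. The bulge marker Cd34 was at 1331, 2136, 1435 and 1312 CPM in L136, L94, L95 and L97, in that order, and at no more than 5.88 CPM in any ORS library. All 9 bulge marker genes set for the check (Cd34, Krt15, Lgr5, Sox9, Lhx2, Nfatc1, Tcf7l1, Tbx1 and Itga6) had reads in all 4 libraries. The presence of reads does not by itself tell HFSC from ORS or IFE cells. Ptprc of leukocytes, Cd207 of Langerhans cells, Kdr of endothelium, and Krt20 and Atoh1 of Merkel cells were at 0 reads in all 4, where a count of 0 allows up to 0.264 CPM in L136, 0.196 in L94, 0.182 in L95 and 0.185 in L97 (3 reads, counting error only). Summed over 15 fibroblast and dermal papilla genes the level was 35.3 and 94.7 CPM in the controls and 43.2 and 70.2 CPM in L95 and L97, and Pdgfrb, Lum, Dpt, Corin, Twist2 and Prrx1 were at 0 throughout. The sums over 10 melanocyte genes were 199 and 308 against 229 and 216 CPM, over 11 endothelial and mural genes 102 and 202 against 173 and 193 CPM, and over 13 macrophage, Langerhans and mast cell genes 62.9 and 44.5 against 36.7 and 57.5 CPM. In these lists the groups overlapped. Red cell genes (Hba-a1 and Hba-a2) set 1 list apart: the sum over 10 erythroid, adipocyte and muscle genes was 7.48 and 12.1 CPM in the controls and 1.64 and 1.66 CPM in L95 and L97. The part of these other cells in the results below was not tested.

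Sex-linked transcripts separated the groups completely. Xist, which silences an X chromosome in female cells, had 5699 and 10191 reads in the controls and 96 and 19 reads in the libraries labelled knockout, while 4 Y-linked genes summed to 0 and 0 reads in the controls and 5153 and 6075 reads in L95 and L97. No comparison of these 4 libraries can separate sex from genotype, and the 2 cannot be told apart. For that reason only autosomal genes are described, although autosomal genes can differ between the sexes too.

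Egfr (chr11:16752203-16918158, + strand, mm10, protein coding) was largely kept in the libraries labelled knockout. Its level was 387 CPM in L136 and 428 CPM in L94, against 331 CPM in L95 and 326 CPM in L97. Both libraries labelled knockout lay below both controls, and their mean was 80.6% of the control mean. The log2 fold change was -0.31 (SE 0.155), a fold of 0.807 with a 95% interval of 0.628 to 1.04, and it did not pass the limma test (unadjusted p = 0.0847, adjusted p = 0.688). In the other compartments the knockout label stands for EGFR_delta_ep. Egfr there was at 0 and 0.319 CPM in the IFE libraries labelled knockout and at 3.72 and 55.2 CPM in those of ORS. The controls were at 116 and 156 CPM in IFE and at 277 and 247 CPM in ORS. E230015J15Rik, an antisense transcript that overlaps Egfr, had 102, 279, 340 and 545 reads in L136, L94, L95 and L97. Whether counting used strand is not given in the sources used here, so reads of this pair cannot be told apart. Because most Egfr transcript was present, L95 and L97 are called by their label throughout. In bulk libraries, fewer cells of a kind and less RNA per cell cannot be told apart.

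Of the 13342 autosomal genes, 1 was called higher (0.0075%) and none was called lower (0.0%) in the libraries labelled knockout, at a limma adjusted p under 0.05. At an unadjusted p under 0.05, 544 genes were higher (4.08%) and 477 lower (3.58%). Both libraries labelled knockout lay above both controls for 2566 genes (19.2%) and below both for 2505 genes (18.8%). The count of called genes depended on single libraries: it was 40 without L94, 14 without L136, 0 without L95 and 0 without L97. The median log2 fold change over autosomal genes was -0.0023. These shares are the background for every list below, and a count near them is no result about its list. Each list is described over its tested members, which are not all of its members, since a gene silent in 1 group is tested only if the other expresses it.

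**Figure D1:**
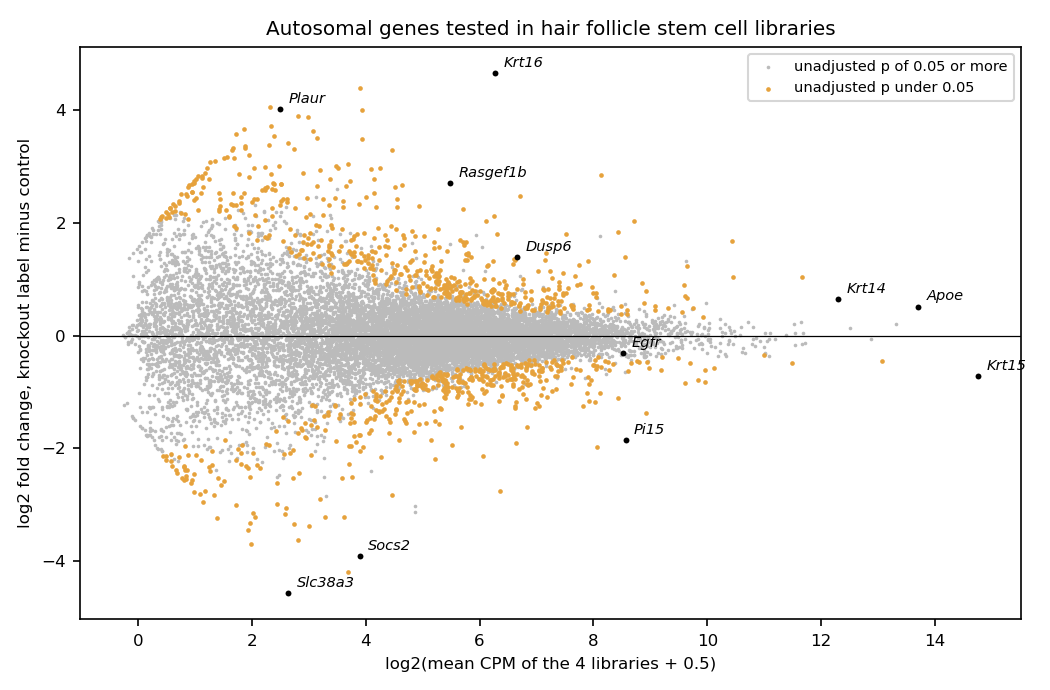
Log2 fold change (libraries labelled knockout minus controls) of each autosomal gene tested against the log2 of its mean CPM plus 0.5 over the 4 HFSC libraries. Grey points had an unadjusted limma p of 0.05 or more, orange points one under 0.05, black points carry gene names, and Egfr lies close to 0 at -0.31.

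Below the threshold, the widest separations among genes higher in the libraries labelled knockout included Plaur, Krt16 and Rasgef1b. Genes were chosen here for the gap between the groups, so their values are a description, and none of the 11 given passed the test. Plaur, the urokinase receptor, was at 0.352 and 0 CPM in the controls and 10.004 and 10.2 CPM in L95 and L97. Krt16, a keratin of wounded and outer sheath epithelium, was at 2.02 and 12.4 against 120.0 and 174 CPM (log2 fold change 4.67, SE 0.694, limma adjusted p = 0.204). Rasgef1b, an exchange factor for RAP GTPases, was at 10.2 and 12.7 against 82.9 and 71.3 CPM (log2 fold change 2.70, SE 0.310, limma adjusted p = 0.0701). In each of these the controls were low together and the libraries labelled knockout high together. Fosl1, an AP-1 subunit, was at 1.32 and 0 against 10.2 and 18.2 CPM. Edn1, which encodes the vasoactive peptide endothelin, was at 4.22 and 2.35 against 22.4 and 56.6 CPM. Tnfrsf19, a TNF receptor family gene of hair follicle epithelium, was at 1.49 and 2.81 against 20.1 and 19.2 CPM. Among these 3 the libraries labelled knockout lay closest together for Tnfrsf19. Further members were Car6, Spire1, Fam101a, Cyp2b19 and the interferon-induced Oasl2, which reached at most 2.94 CPM in a control and lay between 10.1 and 30.1 CPM in the libraries labelled knockout.

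Genes with the widest separation in the other direction ranged over unlike functions. Socs2, a feedback inhibitor of growth hormone signalling, was at 24.01 and 30.5 CPM in the controls and 0.909 and 1.85 CPM in L95 and L97 (log2 fold change -3.92, SE 0.568, limma adjusted p = 0.204). Slc38a3, a glutamine transporter, was at 11.96 and 10.9 CPM and at 0 reads in both libraries labelled knockout. Its control mean was 62.4-fold the mean floor of 3 reads per library in L95 and L97. Akr1c18, a reductase that inactivates progesterone, was at 33.5 and 13.9 against 0 and 2.40 CPM. Akr1c18 and Aqp5 had 0 reads in all 8 IFE and ORS libraries, so HFSC controls were the main source of their reads. Aqp5, a water channel, was at 15.4 and 9.02 against 1.46 and 0 CPM. Atoh8, a bHLH transcription factor, was at 15.4 and 5.23 against 1.15 and 0.185 CPM. Svip, Stfa3, St8sia2, Mob3b, Nav3 and Enpp4 were further members, with 6.77 to 42.9 CPM in the controls and 0.121 to 9.94 CPM in the libraries labelled knockout. None of the 11 given passed the test.

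**Figure D2:**
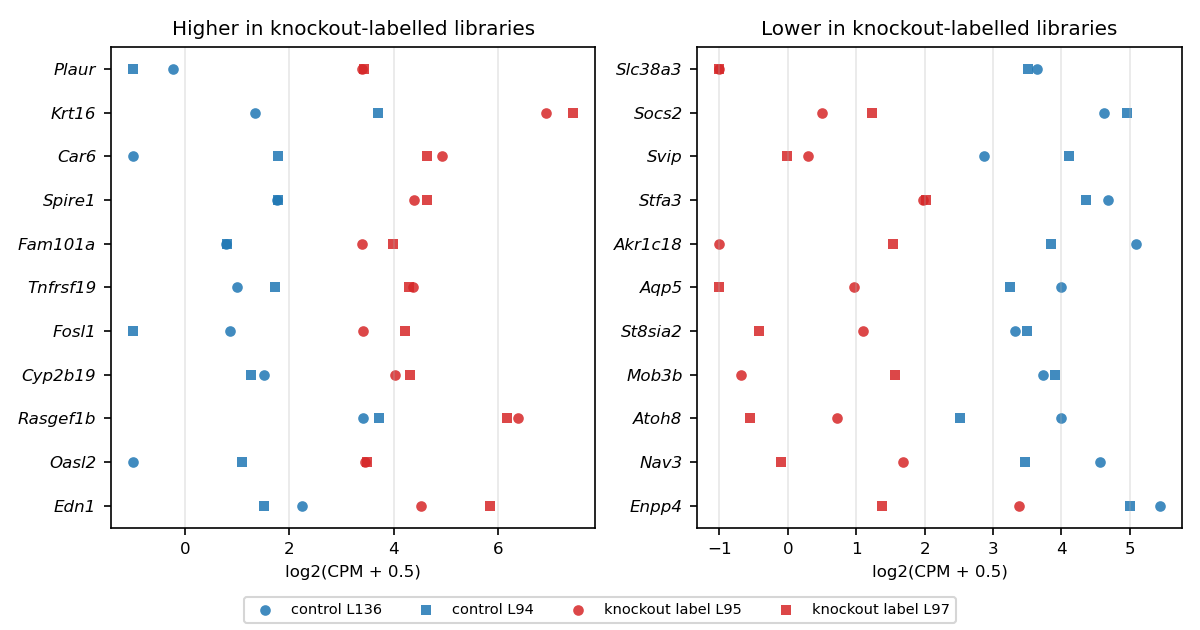
Autosomal genes, 11 in each direction, chosen for the widest gap between the groups, as log2(CPM + 0.5) in each HFSC library (blue: controls L136 and L94; red: libraries labelled knockout L95 and L97). The red and blue points do not overlap in any row because the genes were chosen for that gap, and Krt16 spans 2.02 to 174 CPM.

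Pi15, a secreted peptidase inhibitor, falls outside the naming rules and was picked after its value was seen, because its p lay so close to the threshold. It was at 689 and 500.5 CPM in the controls and 153 and 170.2 CPM in L95 and L97. Its log2 fold change was -1.86 (SE 0.199) and its limma adjusted p = 0.0502, just short of the threshold. With all 4 libraries kept, it was called when scaled by total reads, with a pseudocount of 2 and with a filter at 50 reads.

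Among genes of the EGFR system, 3 ligand transcripts lay higher in both libraries labelled knockout, and Erbb2 and Erbb3 lay near control. Of 21 tested members, 6 lay higher and 1 lower (Egfr) without overlap, 2 of them at an unadjusted p under 0.05 and none called, with a median log2 fold change of 0.14, between 0.07 without L136 and 0.20 without L94. Tgfa, the ligand TGF-alpha, was at 8.88 and 3.40 CPM in the controls and 25.8 and 15.4 CPM in L95 and L97 (log2 fold change 1.76, SE 0.582, limma adjusted p = 0.541). Hbegf, the ligand HB-EGF, was at 5.10 and 10.99 against 13.5 and 22.1 CPM. Btc, the ligand betacellulin, was at 0 and 2.75 against 4.67 and 3.69 CPM. All 3 ligands were low in absolute terms, and Ereg had no read in any of the 4 libraries. The receptor genes Erbb2 and Erbb3 were at 67.4 to 80.6 and 149 to 209 CPM over the 4 libraries, and Erbb4 had no read. Cbl, the ubiquitin ligase that sends the receptor to lysosomes, was at 19.8 and 22.6 against 39.6 and 38.8 CPM. Errfi1, the inhibitor that binds the receptor's kinase domain, was at 19.9 and 23.3 against 26.4 and 43.02 CPM. Both inhibitors thus lay above their controls without passing the test.

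ERK feedback and target genes were mostly higher in L95 and L97. Of 16 tested members, 10 lay higher and 2 lower without overlap (background 19.2% and 18.8%), 5 higher and 1 lower at an unadjusted p under 0.05, and none was called. The median log2 fold change was 0.75 over these tested members, 0.53 without L136, 0.85 without L94, 0.90 without L95 and 0.52 without L97. Dusp6, the ERK phosphatase, was at 54.4 CPM in L136 and 55.8 CPM in L94, against 144 CPM in L95 and 148 CPM in L97. The replicates nearly coincided within each group, and the log2 fold change was 1.40 (SE 0.194, limma adjusted p = 0.2001). The PEA3 factors Etv4 and Etv5, transcribed in response to ERK, also lay higher. Etv5 was at 13.9 and 8.04 against 33.2 and 43.02 CPM (log2 fold change 1.79, SE 0.405, limma adjusted p = 0.378). Etv4 was at 3.17 and 2.48 against 21.1 and 12.2 CPM. Spry2, a Sprouty inhibitor of receptor signalling, was at 143 and 126 against 277 and 185 CPM. All 3 were higher in both libraries labelled knockout, with no overlap. Members that lay lower were Epha4, an ephrin receptor, at 139 and 146 against 104 and 108 CPM, and Dusp5, another ERK phosphatase, at 4.40 and 2.48 against 0.667 and 1.91 CPM. Ccnd1, the cyclin D1 gene, overlapped between the groups at 147 and 48.2 against 53.8 and 107 CPM.

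**Figure D3:**
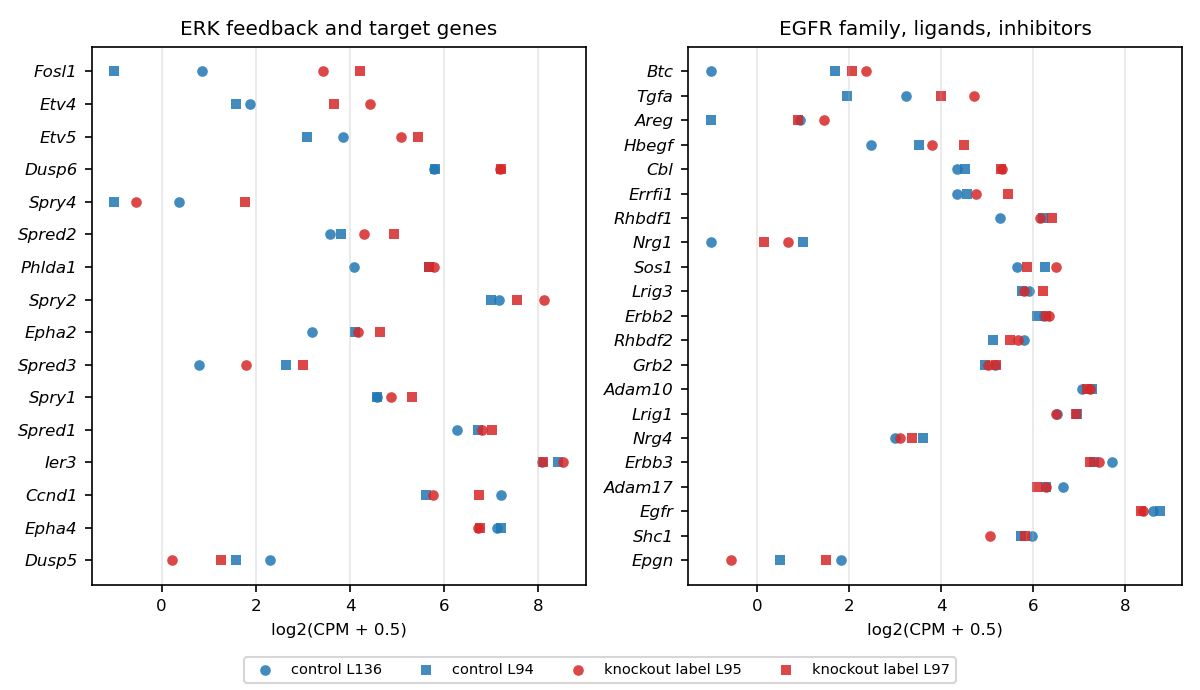
Levels as log2(CPM + 0.5) of the tested ERK feedback and target genes (left) and of the tested EGFR family receptors, ligands and inhibitors (right), ordered by fitted fold change, in each of the 4 HFSC libraries. Red points of Dusp6 lie at 144 and 148 CPM, apart from the blue ones at 54.4 and 55.8 CPM, whereas the Egfr points lie close together.

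Of 22 tested immediate-early and AP-1 genes, 6 lay higher and 2 lower without overlap, with a median of 0.12, between -0.05 without L136 and 0.41 without L95. Fosl1 (above) and Maff, a small MAF factor, were the members at an unadjusted p under 0.05. Maff was at 4.48 and 0.458 against 11.2 and 8.99 CPM. Klf4, a factor of differentiating epidermis, was at 286 and 299 against 335 and 406 CPM. None was called.

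The 250 bases upstream of the RefSeq start are shown for Dusp6 and Plaur, 1 gene with steady replicates from the ERK list and the gene of widest gap among the reported genes that lay higher. Both strands were searched for the ETS motif CCGGAA, which PEA3 factors can bind, and for the AP-1 motif TGANTCA, which FOSL1 can bind with a JUN partner. Capitals mark a match.
Dusp6, chr10:99262981-99263230, + strand: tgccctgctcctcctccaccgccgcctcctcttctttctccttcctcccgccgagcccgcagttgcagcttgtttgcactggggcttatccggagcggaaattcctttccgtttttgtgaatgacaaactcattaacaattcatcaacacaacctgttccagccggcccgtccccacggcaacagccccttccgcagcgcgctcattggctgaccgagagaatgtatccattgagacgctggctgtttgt
Plaur, chr7:24462233-24462482, + strand: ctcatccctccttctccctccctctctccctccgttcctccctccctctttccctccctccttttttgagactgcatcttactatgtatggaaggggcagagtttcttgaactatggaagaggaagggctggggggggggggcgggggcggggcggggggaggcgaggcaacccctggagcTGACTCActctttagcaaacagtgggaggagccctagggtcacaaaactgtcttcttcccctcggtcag
The sequences are from RefSeq on GRCm38.p6. The Plaur window holds 1 AP-1 match, which begins 69 bases before the start on the forward strand, and no ETS match. The Dusp6 window holds neither motif. Of 27025 windows of the same length, 6.87% held the AP-1 motif and 12.2% the ETS motif, so a match in 1 gene is a description and no sign of binding.

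Bulge identity genes had reads in all 4 libraries, from 10.9 CPM for Tbx1 to 36405 CPM for Krt15, and some lay lower in the libraries labelled knockout. Of 22 tested markers, 3 lay higher and 6 lower without overlap, 2 and 4 of them at an unadjusted p under 0.05, none was called, and the median log2 fold change was -0.06, between -0.16 without L136 and 0.07 without L94. Krt15, the keratin that marks the bulge and the most abundant of these transcripts, was at 36405 CPM in L136 and 32495 CPM in L94, against 23155 CPM in L95 and 18958 CPM in L97. The libraries labelled knockout were both lower, at 61.1% of the control mean (log2 fold change -0.72, SE 0.145, limma adjusted p = 0.302). Fgf18, a ligand that holds follicles in rest, was at 81.9 and 97.95 against 49.1 and 29.8 CPM. Gas6, a ligand of TAM receptors, was at 216 and 192 against 109 and 140.1 CPM. Fzd7, a WNT receptor, was at 242 and 257 against 168 and 161 CPM. These 3 lay lower in both libraries labelled knockout. Pdzrn3, a ubiquitin ligase gene, lay higher, at 157 and 268 against 566 and 513 CPM. Lgr5, the gene named in the knockout genotype, was at 131 CPM in L136 and 334 CPM in L94, against 353 CPM in L95 and 280.0 CPM in L97. L136 stood alone at the low end and the other 3 libraries overlapped. The transcription factors Sox9, Lhx2 and Nfatc1, which maintain the bulge, also overlapped, at 1532 to 1975, 259 to 394 and 196 to 246 CPM.

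Of 13 tested hair germ and progenitor genes, 5 lay higher and 3 lower without overlap, with none called and a median of 0.36, between 0.25 without L95 and 0.40 without L94. Lef1, the WNT effector of hair germ cells, was at 5.01 and 0.785 CPM in the controls and 18.5 and 24.9 CPM in L95 and L97. Runx1, a factor that promotes stem cell activation, was at 57.2 and 109 against 157 and 198 CPM. Hoxc13, a regulator of hair keratins, was at 60.1 and 61.8 against 95.4 and 89.4 CPM. These 3 were higher in both libraries labelled knockout, whereas Cdh3, the P-cadherin of the germ, overlapped at 63.3 and 92.4 against 97.9 and 81.2 CPM. Bmp4 and Msx1 lay lower, Msx1 at 17.2 and 9.94 against 4.97 and 4.12 CPM. Shh, the germ ligand, had reads only in L97 (2.34 CPM).

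Krt14 and Krt5, the keratin pair of basal cells, lay on opposite sides of control. Krt14 was at 3870.5 and 4019.9 CPM in the controls and 6305 and 6003 CPM in L95 and L97 (log2 fold change 0.64, SE 0.128, limma adjusted p = 0.297). Its partner Krt5 was at 9742 and 10027 against 7745 and 6723 CPM (log2 fold change -0.45, SE 0.134, limma adjusted p = 0.509). Neither passed the test. Other abundant genes with separate groups were Apoe, an apolipoprotein, at 9580.3 and 12504 against 16665 and 14676 CPM, and Gja1, the connexin 43 gene, at 1349 and 3134 against 4428 and 4017 CPM. Angptl7, a secreted angiopoietin-like protein, was at 1061 and 368 against 1604 and 2477 CPM and never above 3.57 CPM in the IFE and ORS libraries. These 3 lay higher in both libraries labelled knockout, and the next 2 genes lay lower. Aqp3, a glycerol channel of basal cells, was at 3429 and 3286 against 2729 and 2087 CPM. Id3, a BMP target, was at 1473 and 874 against 700.1 and 616 CPM.

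**Figure D4:**
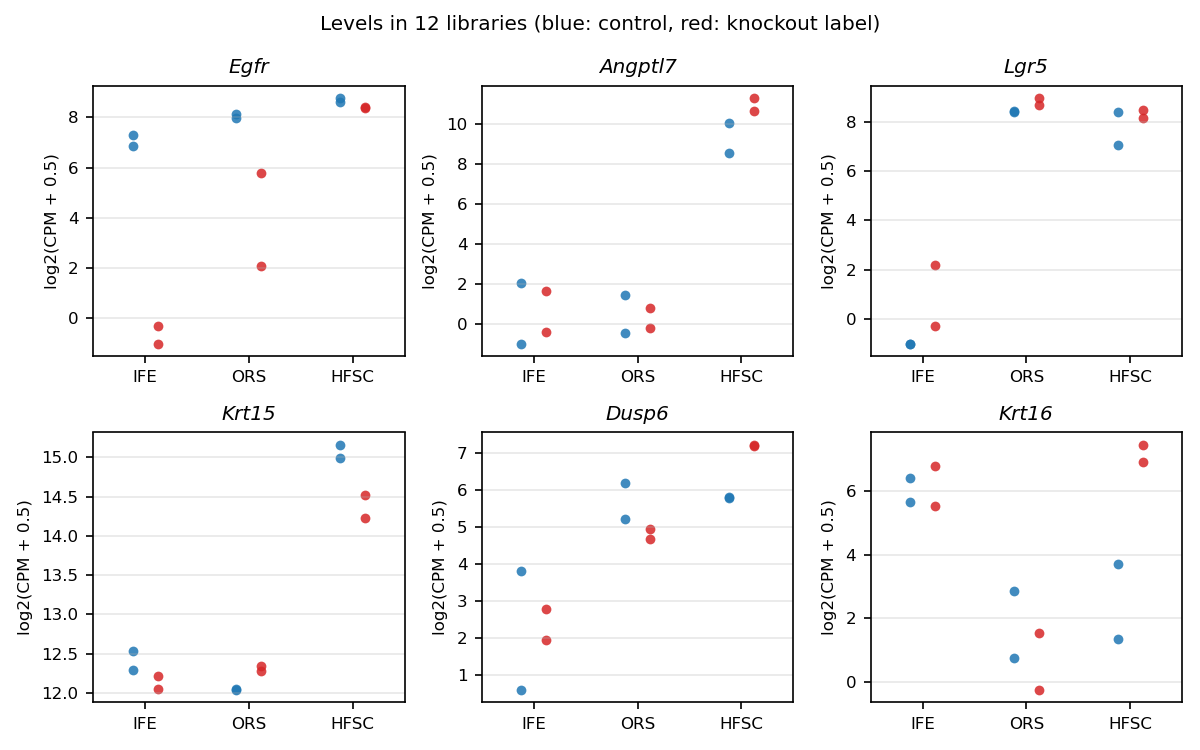
Levels of 6 genes as log2(CPM + 0.5), scaled over all 12 libraries, in IFE, ORS and HFSC cells, with controls in blue and libraries labelled knockout in red (2 each per compartment). Egfr is near the bottom of its panel in IFE knockout-labelled libraries but high in all 4 HFSC libraries, and Krt15 and Angptl7 are highest in HFSC.

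Stress and wound keratinocyte genes had a median log2 fold change of 1.55 over 12 tested of 20 members, with 7 higher and 3 lower without overlap, 5 and 2 at an unadjusted p under 0.05 and none called. Without L95 the median was 0.31 and without L97 it was 0.12, over the members then tested, and it was 0.10 with all 12 libraries in the fit. The members left out had too few reads to be tested, so the median does not describe the whole list. Krt16 (above) and Krt6a were members of substantial level. Krt6a, a keratin of the companion layer and of wounds, was at 1036 and 808 CPM in the controls and 2035 and 1735 CPM in L95 and L97 (log2 fold change 1.04, SE 0.175, limma adjusted p = 0.237). Krt17, which is often induced with them, overlapped at 3055 and 2410.2 against 2899 and 3347 CPM. Krt6a with Krt6b, and Krt16 with Krt17, are near-identical in parts, so reads may be shared within these pairs. Cxcl1, a neutrophil chemokine, had 0 reads in both controls and was at 4.12 and 8.37 CPM in the libraries labelled knockout. Its mean in the latter was 27.2-fold the mean control floor of 3 reads per library. Stfa3, a stefin protease inhibitor, and Il33, an alarmin cytokine, lay lower, Il33 at 7.30 and 17.3 against 4.73 and 2.77 CPM. The alarmins S100a8 and S100a9 had no read in any of the 4 libraries.

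Differentiation genes lay on both sides of control. Of 19 tested suprabasal genes, 6 lay higher and 6 lower without overlap, with a median of -0.21, and with 1 library left out from -0.18 without L97 to 0.22 without L136. Krt10, the main suprabasal keratin, was at 77.2 and 54.99 CPM in the controls and 32.1 and 30.2 CPM in L95 and L97. Krt1, its partner, was at 14.7 and 17.7 against 7.82 and 4.31 CPM, and the related Krt77 at 76.2 and 44.6 against 14.6 and 10.4 CPM. These keratins lay lower in both, and Serpinb2, a protease inhibitor, lay higher at 43.2 and 41.1 against 110.2 and 103 CPM. Only 7 of 25 cornified envelope genes could be tested, with a median of 0.92, between -0.19 without L95 and 2.33 without L97. Sprr1a, an envelope precursor, was at 37.5 and 133 against 404 and 153 CPM, with L95 alone clearly high. Krt80, an epithelial keratin of the outer sheath list, lay lower, at 372 and 257 against 162 and 104 CPM. None of these was called. Inner root sheath keratins followed single libraries: Krt71 was at 19.9 and 2.16 against 6.18 and 25.4 CPM, high in 1 library of each group.

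By fitted fold change, tested WNT genes were 14 higher and 10 lower, and tested BMP and TGF-beta genes 17 higher and 7 lower. Over all autosomal genes tested, 49.8% were higher. Of 24 tested WNT ligands, receptors and targets, 3 lay higher and 4 lower without overlap (median 0.04, between -0.07 without L94 and 0.07 without L136), and of 24 tested BMP and TGF-beta genes, 6 higher and 3 lower (median 0.28, between 0.07 without L136 and 0.32 without L95). Secreted WNT and BMP antagonists had 2 of 12 tested members higher and 4 lower without overlap, and 6 and 6 by fitted fold change. Sfrp1, the WNT-binding antagonist, was at 1230.3 and 1309 CPM in the controls and 691 and 734 CPM in L95 and L97 (log2 fold change -0.83, SE 0.143, limma adjusted p = 0.253). Sostdc1, an antagonist of BMP and WNT, was at 1177 and 828 against 552 and 549 CPM. Fstl1, a follistatin-like protein, was at 247 and 149 against 74.3 and 109 CPM. All 3 lay lower in both libraries labelled knockout. Among ligands, Bmp7 was at 15.4 and 21.5 against 43.7 and 47.7 CPM and Bmp2 at 15.04 and 15.2 against 29.3 and 36.99 CPM. Inhba, the activin subunit, was at 1.93 and 0.0654 against 7.46 and 10.6 CPM. These 3 ligands lay higher, whereas Bmp4 lay lower, at 2.73 and 2.88 against 0.121 and 0 CPM, and Bmp6 overlapped. None of these ligands was called.

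In the Hedgehog list, 6 of 12 tested members lay higher and 1 lower without overlap, with a median of 0.38, between 0.31 without L136 and 0.52 without L94. The effector Gli2 was at 31.3 and 27.7 CPM in the controls and 53.1 and 58.6 CPM in L95 and L97, while the target Gli1 overlapped at 11.3 and 10.005 against 6.43 and 29.05 CPM. Gli1 was both lowest and highest in the libraries labelled knockout. Other list members did not overlap, in both directions. Ptch1 lay higher, at 6.16 and 10.9 against 20.6 and 12.4 CPM, and Hhip lower, at 1.85 and 5.82 against 0 and 1.17 CPM. In the Notch list 2 of 11 tested members lay higher and 0 lower without overlap. Nrarp, a Notch target that dampens the pathway, was at 15.9 and 20.5 against 53.9 and 54.96 CPM. The YAP and TEAD list holds pathway members as well as targets. Of its 12 tested genes 4 lay higher and 0 lower without overlap (median 0.34, between 0.25 without L136 and 0.55 without L94). The 4 were Ctgf, Lats2, Tead1 and Tead4. The targets Cyr61 and Axl overlapped, Cyr61 at 79.8 and 149 against 117 and 323 CPM. Ctgf, a matricellular protein also counted as a bulge marker, was at 138 and 179 against 468 and 899 CPM (log2 fold change 2.04, SE 0.304, limma adjusted p = 0.204). The antisense gene Gm15270 overlaps Ctgf and had 216 and 505 reads against 1205 and 2420 reads, so the pair cannot be told apart without strand. Tead1, the DNA-binding partner of YAP, was at 32.7 and 37.2 against 56.6 and 74.1 CPM. None of these genes was called.

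Genes of IGF signalling lay on both sides of control. Of 11 tested IGF and insulin genes, 5 lay higher and 4 lower without overlap, 2 and 4 of them at an unadjusted p under 0.05 and none called. Igfbp5, which binds IGFs in the follicle, was at 69.03 and 215 CPM in the controls and 31.2 and 9.72 CPM in L95 and L97 (log2 fold change -2.77, SE 0.647, limma adjusted p = 0.400). Igfbp3 was at 76.2 and 248 against 38.1 and 34.1 CPM. The controls of both genes differed widely from each other, with L94 the higher. Igfbp7 lay higher, at 8.62 and 12.8 against 12.9 and 23.6 CPM. Igfbp4 was at 78.3 and 52.97 against 29.6 and 30.5 CPM, and Pappa, the protease that cleaves IGFBP4, at 15.7 and 20.5 against 30.8 and 54.3 CPM. Of 15 tested JAK, STAT and SOCS genes, 3 lay higher and 5 lower without overlap, none called. Socs3, an inhibitor of JAK kinases, was at 43.6 and 46.4 against 19.2 and 18.96 CPM. Cish, a further member of that family, was at 68.6 and 63.7 against 42.99 and 6.46 CPM, lowest by far in L97. Of 12 tested FGF genes, 2 lay higher and 5 lower without overlap, and 6 and 6 by fitted fold change.

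Among members without overlap, more genes of the chemokine and interferon lists lay higher than lower. Over all autosomal genes tested, 19.2% lay higher and 18.8% lower without overlap. By fitted fold change the tested interferon genes split evenly, 8 higher and 8 lower. Of 13 tested chemokines and cytokines, 6 lay higher and 2 lower without overlap (median 0.45, between 0.12 without L136 and 0.57 without L94), and of 16 tested interferon-stimulated genes, 7 higher and 2 lower (median 0.23, between 0.05 without L136 and 0.64 without L95). Ccl2, a monocyte chemokine, was at 1.85 and 0.327 CPM in the controls and 5.58 and 12.99 CPM in L95 and L97. Irf9, a transducer of interferon signals, was at 51.5 and 53.6 against 74.6 and 83.6 CPM. MHC and antigen presentation genes had 2 of 14 tested members higher and 3 lower without overlap, and 7 and 7 by fitted fold change. B2m, the light chain of MHC class I, was at 558 and 1102 against 1119.5 and 1234 CPM, with L136 alone low. None of these genes was called.

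Mitosis genes varied between libraries and did not separate by label. Summed over 24 mitosis genes the level was 570.2 CPM in L136, 280.2 CPM in L94, 153 CPM in L95 and 969 CPM in L97. The libraries labelled knockout held both the lowest and the highest sum, and 0 of 24 members separated the groups in either direction. Of 23 tested DNA replication genes 2 lay higher and 1 lower without overlap. Rrm2, a ribonucleotide reductase subunit, was at 106 and 50.7 against 168 and 247 CPM. Ccnd2, a D cyclin, lay lower at 749 and 655 against 419.6 and 504 CPM. Cdkn2b, an inhibitor of CDK4 and CDK6 induced by TGF-beta, lay higher at 9.94 and 12.9 against 24.8 and 27.4 CPM. None of these 3 was called.

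Ribosomal protein genes had 11 of 35 members higher and 1 lower without overlap, with a median log2 fold change of 0.06, between 0.04 without L97 and 0.07 without L95 and at 0.015 on the deposited log2 values, and 0 at an unadjusted p under 0.05. Of 25 tested cholesterol and fatty acid synthesis genes, 2 lay higher and 5 lower without overlap, and 6 and 19 by fitted fold change. Their median was -0.25, between -0.45 without L94 and -0.04 without L136. Hmgcs1, an enzyme of cholesterol synthesis, was at 468 and 253 CPM in the controls and 215 and 239 CPM in L95 and L97. Hmgcs1 lay lower in both and did not pass the test. NRF2 and metallothionein genes had 6 of 16 tested members higher and 1 lower without overlap, and 12 and 4 by fitted fold change. Hmox1, heme oxygenase, was at 6.68 and 10.7 against 34.6 and 26.6 CPM. Of 24 tested hypoxia and glycolysis genes, 9 lay higher and 4 lower without overlap, whereas by fitted fold change 10 were higher and 14 lower. Their median was -0.08, between -0.11 without L94 and 0.05 without L136. Pkm, pyruvate kinase, lay lower at 519 and 488 against 362 and 369.6 CPM, and Hk2, hexokinase, higher at 106 and 66.96 against 143 and 129 CPM.

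Matrix, adhesion and guidance lists held single genes that lay lower. Of 16 tested collagens and matrix genes 3 lay higher and 3 lower without overlap, and of 23 tested basal adhesion genes 5 higher and 6 lower. Npnt, the nephronectin with which bulge cells position the arrector pili muscle, was at 354 and 276 CPM in the controls and 129 and 184 CPM in L95 and L97. Col18a1, a basement membrane collagen, was at 261 and 265 against 167 and 176 CPM. Fn1, fibronectin, was at 113 and 69.2 against 40.02 and 47.3 CPM. In all 3 the controls lay higher. Thbs1, a matrix glycoprotein that activates TGF-beta, lay higher in the libraries labelled knockout, at 72.7 and 276 against 534 and 489 CPM. Epha1, an ephrin receptor, lay lower at 213 and 145 against 77.8 and 74.7 CPM (log2 fold change -1.20, SE 0.230, limma adjusted p = 0.281). None was called.

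**Figure D5:**
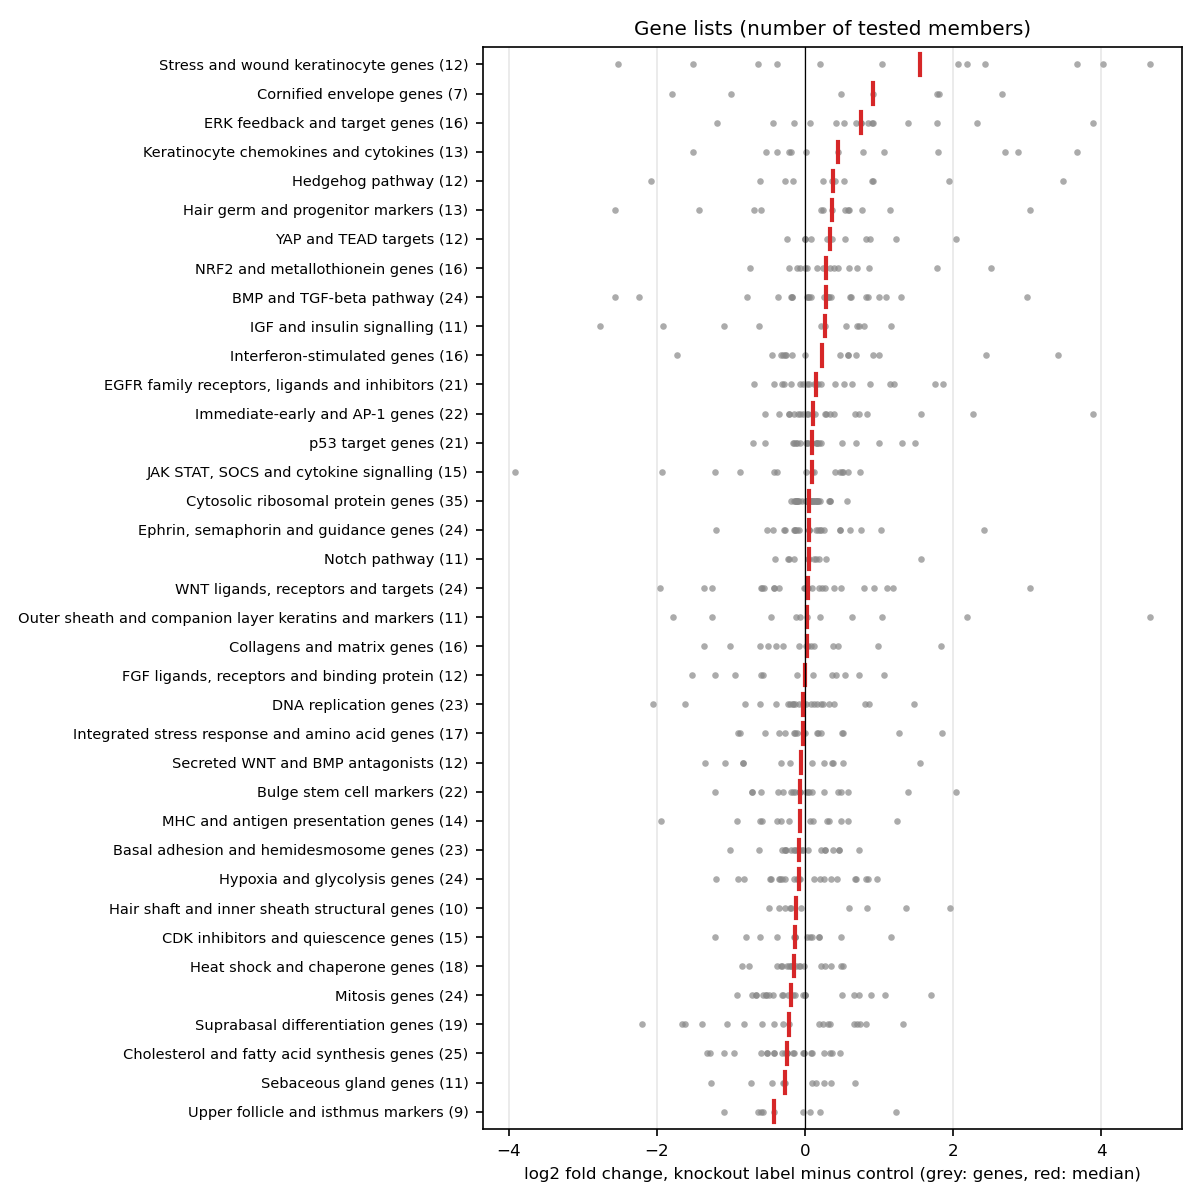
Log2 fold change (libraries labelled knockout minus controls) of every tested member of each gene list with at least 5 tested members. Grey points are genes and red bars list medians, ordered by that median from stress and wound keratinocyte genes (1.55) to upper follicle and isthmus markers (-0.41). None of these genes passed the adjusted threshold.

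The effect of the knockout label in HFSC was also set against that in IFE and ORS, in a limma fit of all 12 libraries. No autosomal gene of 14757 differed between HFSC and IFE (0.0%) or between HFSC and ORS (0.0%) at an adjusted p under 0.05. At an unadjusted p under 0.05, 1071 and 656 genes did, and with voom weights 0 and 2 genes were called. Krt15 was 1 of those called against ORS with voom weights. Krt15 differed by -0.98 from ORS (SE 0.169, limma adjusted p = 0.438). For Egfr the difference was 7.42 from IFE (SE 1.17, limma adjusted p = 0.0864) and 3.80 from ORS (SE 1.17, limma adjusted p = 0.864). Dusp6 differed by 1.24 from IFE (limma adjusted p = 0.891). No HFSC response is therefore shown to be particular to these cells. The IFE groups differ in Xist and Y-linked reads in the opposite order to HFSC. Xist had 34 and 11 reads in IFE controls and 23925 and 16454 in libraries labelled knockout. In this contrast too sex cannot be told apart from genotype. The ORS controls were unlike each other, with 29 and 41490 Xist reads and 11873 and 2 Y-linked reads. Both ORS libraries labelled knockout were high in Xist (43878 and 38267 reads). Reads in genes were 50.6% to 54.6% of the totals in ORS, against 26.9% to 28.9% in HFSC. The part of these differences in the ORS contrast was not tested.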

How the data were processed

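RNA of the 4 HFSC libraries was isolated with a PicoPure kit and amplified with a SMARTer Ultra kit, per the labels' protocols, and sequenced as paired reads of 150 bp. The authors deposited log2 reads per 1e6 of a library total (39.9 to 60.9 M in HFSC), with genes lacking reads set to 0.9 read. Trim Galore, DESeq2 and mm10 are named in the submitters' processing notes. The sources used here do not give the aligner, counter, annotation or use of strand. Whole reads were recovered from the deposited log2 values within 0.2 reads for at least 99.99% of genes. Reads in genes were 26.9% to 28.9% of the totals, 13 mitochondrial genes had 0 reads, and 14539 to 14985 genes had reads. The control pair and the knockout-labelled pair differed by 45.0 and 41.4 in chi-square per degree of freedom, so neither pair is 1 library given again.

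Because the deposited unit is log2, no count model was used. Reads were scaled by TMM (own implementation, trims of 30% and 5%, factors 0.980 to 1.03) and log2(CPM + 0.5) was fitted with limma 3.58.1 in R 4.3.3 (trended, robust prior, statmod 1.5.0, 2 residual degrees of freedom). This scale understates changes of low genes. Genes tested had 10 or more reads (scaled to the median library) in 2 libraries and 15 or more in total. P-values were two-sided and Benjamini-Hochberg adjusted over all 13778 genes tested, of which 5 were called, 4 of them sex-linked. The differences from IFE and ORS came from 6 groups over 12 libraries (6 residual degrees of freedom). The script was tested on simulated data. Members and lists were chosen with earlier results of these data known.

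The text names Egfr, called genes, the 12 genes in each direction with the widest gap between groups (mean of at least 10 CPM in the higher group), the 6 in each direction of largest CPM difference without overlap, up to 4 members per list of smallest unadjusted p, and list members of defining role. Further list members are named for their role in the pathway, and Pi15 was added after its value was seen. Unnamed gene models were counted only. Some genes that these rules select, and 1 list, are not reported here, although counts over all genes include them. Of the gene names, 22722 (87.5%) were found in GENCODE vM21. Overlaps between genes came from the coordinates that the authors deposited. Alternatives were other scalings, pseudocount, filters, voom weights, the deposited log2 values, all 12 libraries in 1 fit and leaving out each library.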

Additional observations from a re-analysis of the deposited data

Results flagged for a closer look

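Reads of 4 Y-linked genes (Uty, Kdm5d, Ddx3y and Eif2s3y), which the autosomal comparison does not use, summed to 5153 in L95 and 6075 in L97, the libraries labelled knockout, and to 0 in both controls. These values stand out because they lie above the level in the control libraries. Their part in the autosomal differences was not tested, since each group is of 1 kind in these reads.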

How the results depend on the processing

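With all 4 libraries kept, the count of called autosomal genes was 2 with scaling by total reads, 2 with a pseudocount of 2, 3 with a filter at 50 reads, and 0 with no filter on low counts, with voom weights and on the deposited log2 values. It was 1 with median-of-ratios size factors and with all 12 libraries in the fit. Leaving out each library in turn gave 0 to 40 called genes, the arm with 1 library being assumed to vary like the other. Egfr was not called under any of the 12 and stayed at -0.37 to -0.24. The difference of effects between HFSC and IFE gave 0 genes under each alternative run, and that between HFSC and ORS gave 2 with voom weights. Of 150 named genes carried through the alternatives, 0 changed sign. They had been picked for groups that do not overlap or for a small unadjusted p. Stable signs therefore follow largely from that choice. The medians of 19 of 44 lists kept their sign under all alternatives and those of 25 turned under 1 or more, the FGF median of 0.00 under both other scalings. The causes were not tested. No paired analysis was possible because the titles carry library numbers that the groups do not share, and the replicate numbers given in accession order pair nothing. With 11.5 to 16.8 M reads in genes, genes at a few CPM rest on few reads.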
